A study of Ovis aries with 12 samples.

Results

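Callipyge lambs were compared with normal lambs at 30 days of age in longissimus dorsi, the loin muscle that runs along the spine and one that enlarges in callipyge sheep. The comparison comprised every array labelled with that age, which were 4 of the 12 in the series: 2 lambs labelled callipyge with the genotype +/CLPG and 2 labelled normal with the genotype +/+. All lambs had nursed their dams until shortly before euthanasia, their muscle was placed in RNAlater, and total RNA of each was hybridised to 1 Affymetrix bovine expression array. The other 8 lambs had the same genotypes at 10 and 20 days, with 2 in each group, and are used here to measure the spread between lambs and to set beside the 30 day values. The labels do not say which parent gave the CLPG allele, nor the sex, breed or litter of a lamb.

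Callipyge is a postnatal muscle overgrowth caused by a base change between DLK1 and MEG3 in an imprinted gene cluster. The overgrowth appears in heterozygotes that received the mutant copy from the sire. In that cluster the paternal chromosome expresses DLK1, a transmembrane protein with EGF-like repeats related to Notch ligands, and RTL1, a retrotransposon-derived protein. The maternal chromosome expresses the noncoding RNAs MEG3 (also called GTL2) and MEG8. Fast glycolytic fibres of the loin and hindquarter enlarge, while fibre number is largely set before birth.

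The values are signals, meaning microarray intensities scaled so that all arrays had the same trimmed mean. A difference is the callipyge mean minus the normal mean of log2(signal + 16), with the standard error (SE) of the fit over all 12 arrays, n = 2 lambs in each group. The added 16 makes the fold changes of dim probe sets too small. Before scaling, the trimmed means of the 30 day arrays ran from 76.3 to 105.6. They correlated with each other, across probe sets, between r = 0.948 and r = 0.964, and the value within a genotype was 0.957 for callipyge and 0.956 for normal lambs. The arrays of callipyge lamb 2 and normal lamb 2 had the lowest mean correlations with the other arrays, at 0.953 and 0.951. The muscle genes CKM, TNNT3, MYH1, ACTA1 and MB all gave signals of 3517 or more in each of the 4 lambs, and none of them was called between the genotypes.

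The 30 day groups also differed in XIST, the RNA that coats the inactive X chromosome in female cells. A probe set for it read 113.2 and 97.0 in the callipyge lambs and 9.80 and 16.9 in the normal lambs. Of the other ages, callipyge 20 day lamb 1 and normal 10 day lamb 2 were high, with mean log2 values of 7.32 and 7.15, and the remaining 6 lambs lay between 4.45 and 4.83. At 30 days the XIST level and the genotype cannot be told apart within the 4 lambs. For the called probe sets, DNTTIP1 and UCHL1, values are therefore also given from a fit with the XIST level as a covariate. The coefficient of that covariate rests on the callipyge 20 day and normal 10 day groups, where the lambs of a group differed. For most other genes and for the gene lists below, values from that fit are not given.

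DLK1, METTL21E and PARK7 were called higher in callipyge muscle at 30 days, each by 3-fold or more, and no gene was called lower. DLK1 is the gene beside the mutation, METTL21E is a protein-lysine methyltransferase expressed mainly in skeletal muscle, and PARK7 (DJ-1) is a protein that protects cells from oxidative damage. With 2 unnamed probe sets, they made up 6 of the 12008 probe sets tested, or 0.05%, at an adjusted p under 0.05 in limma. All 6 were higher in callipyge lambs. Without adjustment, 918 probe sets had a p under 0.05 (7.64%, against 600.4 by chance), 444 higher (3.7%) and 474 lower (3.95%). The callipyge and normal signals did not overlap for 4022 probe sets (33.5%), 1890 of them higher (15.7%) and 2132 lower (17.8%) in callipyge lambs. A difference of at least 2-fold was seen in 109 probe sets (0.908%), 60 higher (0.5%) and 49 lower (0.408%). The median difference over all tested probe sets was -0.02 with quartiles of -0.21 and 0.18, and 47.3% lay above 0. An exact permutation test of 2 lambs against 2 cannot give a two-sided p below 0.333, so the calls rest on the spread pooled over the 12 arrays.

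**Figure D1:**
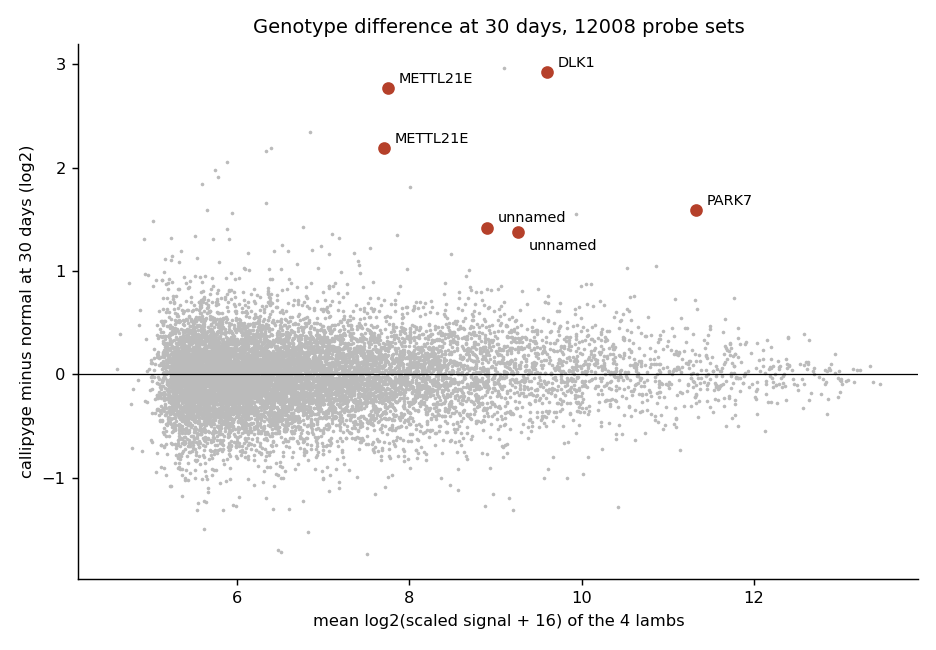
Genotype difference at 30 days (y axis, log2) against the mean log2(signal + 16) of the 4 lambs (x axis) for the 12008 probe sets tested; red points have an adjusted p under 0.05. All 6 red points lie above 0, from 1.38 to 2.92.

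DLK1 gave signals of 2241 and 2007 in the callipyge lambs and of 374.8 and 187.5 in the normal lambs. Both callipyge lambs lay far above both normal lambs, and normal lamb 2 was the lowest. The difference was 2.92 ± 0.26, a 7.58-fold increase (limma, adjusted p = 0.000473). The other DLK1 probe set was dimmer, at 159.4 and 184.5 against 116.4 and 64.5, and its difference of 0.86 ± 0.23 did not pass (adjusted p = 0.36). DLK1 passed in all 12 fits that left out 1 array, with differences from 2.45 to 3.39 and a highest adjusted p of 0.0141. It also passed with the XIST covariate, at 3.19 ± 0.31 (adjusted p = 0.0035), and without both lambs numbered 2, at 2.53 (adjusted p = 0.00717). In the fit with the XIST covariate, DLK1 was the only probe set called.

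METTL21E was measured by a pair of probe sets, and both passed. In the first the callipyge signals were 359.6 and 511.6 and the normal signals 97.8 and 67.7, a difference of 2.19 ± 0.25 or 4.56-fold (limma, adjusted p = 0.00531). In the other they were 556.1 and 535.1 against 104.8 and 40.3, a difference of 2.77 ± 0.34 or 6.81-fold (adjusted p = 0.00657). The groups were apart in both, and normal lamb 2 was again the lowest. Each passed in 11 of the 12 fits without 1 array. Without callipyge lamb 2 the first probe set had an adjusted p of 0.111. With the XIST covariate the differences were 2.20 ± 0.33 and 2.72 ± 0.44, with adjusted p-values of 0.097 and 0.143, so the sizes were nearly the same and the calls were lost. The median SE over all tested probe sets was 0.32 in that fit and 0.25 in the fit without it.

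PARK7 gave signals of 4047 and 4835 in the callipyge lambs and of 1913 and 1116 in the normal lambs. The groups did not overlap, and the normal lambs differed from each other more than the callipyge lambs did. The difference was 1.59 ± 0.21, a 3.01-fold increase (limma, adjusted p = 0.0109). It was 1.60 ± 0.27 with the XIST covariate, with an adjusted p of 0.143, and it lost the call without callipyge lamb 2 (adjusted p = 0.222) and without scaling of the arrays (adjusted p = 0.0788). Without both lambs numbered 2 it was 1.08 (adjusted p = 0.153).

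The 2 unnamed probe sets that passed carry no symbol in the array's annotation. Signals of the first were 770.2 and 759.8 in callipyge and 297 and 254.9 in normal lambs, a difference of 1.42 ± 0.19 (limma, adjusted p = 0.0126), and it was also called at 10 days (1.20) and at 20 days (1.43). For the other, the signals were 796.9 and 1194 against 371.2 and 357.8, a difference of 1.38 ± 0.20 (adjusted p = 0.0237). In each the callipyge lambs lay above the normal lambs. They passed in 9 and 5 of the 12 fits that left out 1 array, and with the XIST covariate neither passed (adjusted p = 0.143 and 0.404). Both also lost the call without scaling of the arrays (adjusted p = 0.19 and 0.257) and in a fit of the 4 arrays at 30 days alone (0.145 and 0.257).

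**Figure D2:**
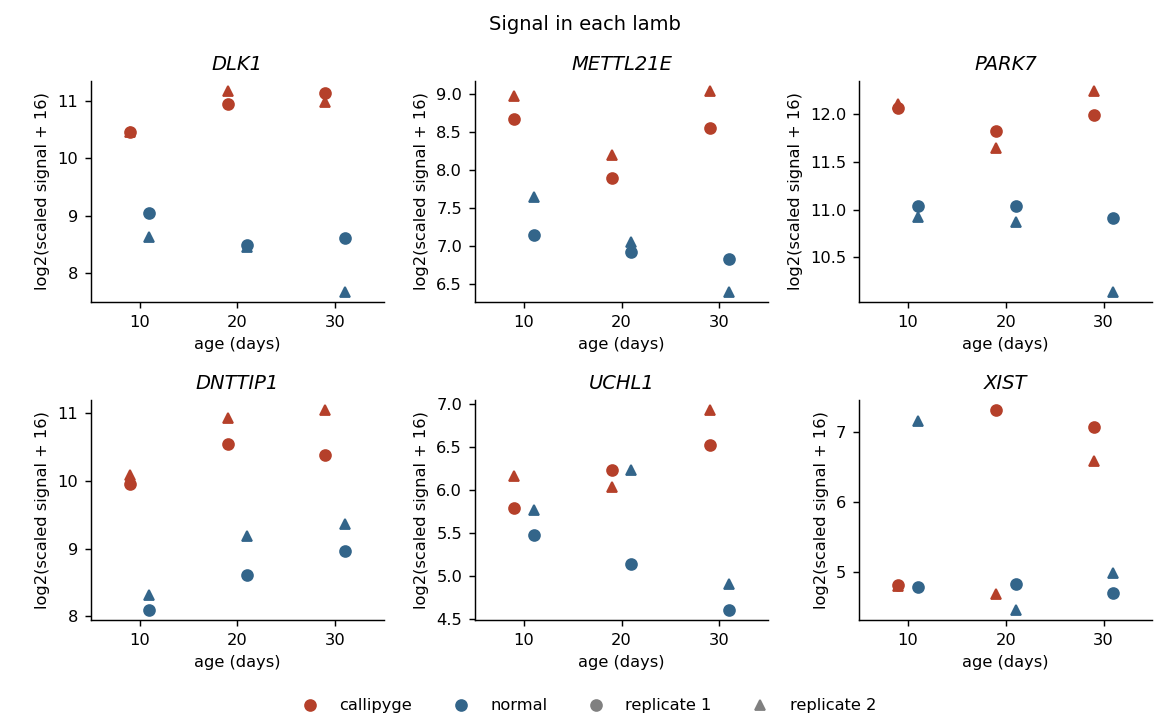
Log2(signal + 16) in each of the 12 lambs (y axis) by age in days (x axis) for DLK1, METTL21E (first probe set), PARK7, DNTTIP1, UCHL1 and XIST (mean of its 2 tested probe sets); red is callipyge, blue is normal, circles and triangles are replicates 1 and 2. DLK1, METTL21E, PARK7 and DNTTIP1 are higher in every callipyge lamb than in every normal lamb of the same age, UCHL1 is apart at 30 days but overlaps at 20 days, and XIST is high in both callipyge lambs at 30 days and in 2 lambs of other groups.

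The genes around the mutation were examined next. Of the 11 genes listed for the callipyge locus, 5 were measured, 2 were too dim to test and 4 (among them RTL1, BEGAIN and DIO3) had no probe set named for them. DLK1 was the only one called. All 5 lay above 0 by their brightest probe set, with a median of 0.70, but the median was 0.25 when all their probe sets were used. The dim genes were WDR25 and MEG8, with signals of at most 7.79 and 6.05 in any of the 4 lambs.

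MEG3, the maternal noncoding RNA, had 5 probe sets that did not move together. The brightest read 659.7 and 332.4 in callipyge and 131.3 and 114.4 in normal lambs. Its difference of 1.81 ± 0.55 did not pass (adjusted p = 0.451), although the groups were apart. Another read 256 and 210.2 against 136.9 and 76.2, a difference of 1.06 ± 0.36 (adjusted p = 0.533). The remaining 3 had differences of 0.32, -0.39 and -0.45, with adjusted p-values between 0.797 and 0.843. Which stretch of the transcript each probe set reads was not examined.

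The other locus genes showed small differences. YY1, a zinc finger transcription factor, had 3 probe sets at 0.08, 0.05 and -0.06. WARS1, the cytoplasmic tryptophanyl-tRNA synthetase, had 4 at 0.41, 0.25, 0.01 and -0.62, the brightest reading 338.5 and 462 in callipyge and 268.3 and 323.6 in normal lambs. The mitochondrial carrier SLC25A29, which transports basic amino acids, read 30.2 and 53.1 against 16.4 and 21.2 (0.70 ± 0.35, adjusted p = 0.677). None of these passed, and the signs of all 3 YY1 and of 2 WARS1 probe sets depended on the arrays or the scaling used.

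Gene order was taken from the sheep assembly ARS-UI_Ramb_v3.0, which is not the build of the array. Among DLK1, MEG3 and the 20 genes nearest to them there, 12 had a probe set and 11 were tested. Of those outside the locus list, CINP, which binds cyclin-dependent kinase complexes, was the highest of the 6 measured, at 184.2 and 143.6 against 94.5 and 106.7, a difference of 0.62 that did not pass (adjusted p = 0.634). The lowest was DYNC1H1, the heavy chain of cytoplasmic dynein, at -0.30. EVL, PPP2R5C, HSP90AA1 and WDR20 lay between these, at 0.07, 0.12, 0.34 and 0.34. DLK1 and MEG3 thus had the largest differences of the window, and DLK1 alone was called.

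**Figure D3:**
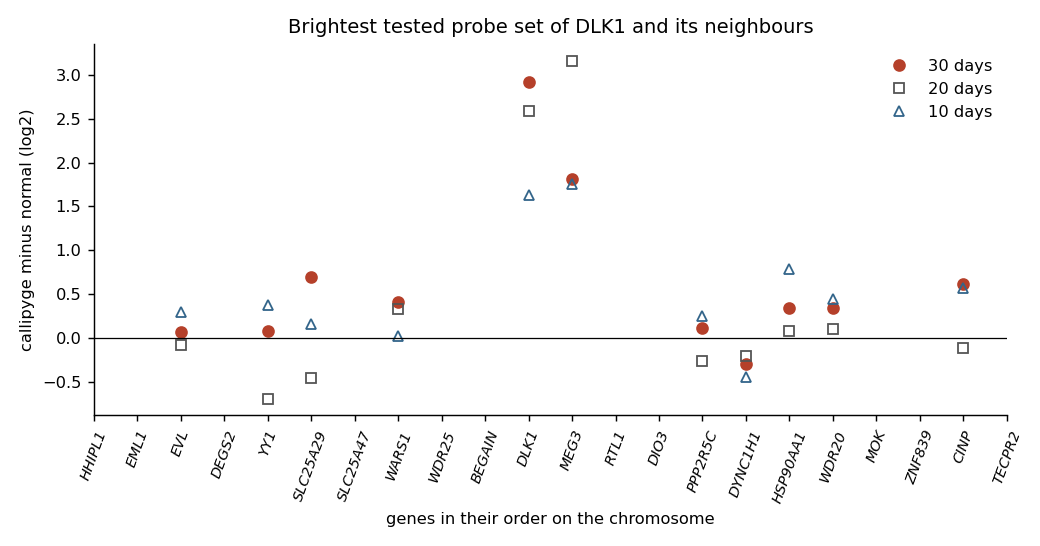
Genotype difference (y axis, log2) of the brightest tested probe set of DLK1, MEG3 and their neighbours, in gene order along the chromosome (x axis), at 30 days (filled circles), 20 days (squares) and 10 days (triangles); genes with no point were not measured. DLK1 (2.92) and MEG3 (1.81) stand above the other genes at 30 days, which lie between -0.30 and 0.70.

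Beside the called genes, those with the smallest p in each direction were DNTTIP1, UCHL1, NOL3, RPS6KA3, NQO1, HOMER2 and NMRK2 on the higher side and GIGYF1, COQ8A, TCEA3, TOB2, TTC14, N4BP2L1, ARHGEF2, MAPK8IP3, ANGPT1 and RAMP1 on the lower side. None of these 17 passed, and for all of them the callipyge and normal lambs did not overlap at 30 days. As they were taken for their small p, the separation follows from how they were chosen.

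DNTTIP1, a subunit of a mitotic histone deacetylase complex, read 1313 and 2105 in callipyge and 486.7 and 639.7 in normal lambs. Its difference of 1.55 ± 0.26 narrowly missed the threshold (limma, adjusted p = 0.0593), while it had passed at 10 days (1.81, adjusted p = 0.027) and at 20 days (1.84, adjusted p = 0.0232). UCHL1, a deubiquitinating enzyme best known from neurons, read 76.6 and 106.6 against 8.30 and 14.0, a difference of 1.98 ± 0.32 (adjusted p = 0.0593). Its differences at 10 and 20 days were 0.36 and 0.44. With the replicate number as a block, both passed, with adjusted p-values of 0.00539 and 0.0184. With the XIST covariate they were 0.34 and 0.421. UCHL1 also passed without scaling of the arrays.

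Of the rest on the higher side, NQO1, a quinone reductase of the antioxidant response, read 348.1 and 357.2 in callipyge and 147 and 113 in normal lambs (1.35, adjusted p = 0.155). NMRK2, a nicotinamide riboside kinase of muscle that feeds NAD synthesis, read 2398 and 1811 against 1276 and 804.7 (1.03, adjusted p = 0.174). HOMER2, a scaffold that binds calcium channels and metabotropic receptors, read 401.1 and 668.7 against 197.7 and 252.4 (1.16, adjusted p = 0.159). These 3 had clearly separated groups without passing. RPS6KA3, the growth-factor kinase RSK2, read 474.7 and 630.2 against 270.9 and 278.1 (0.95, adjusted p = 0.146). NOL3, a repressor of apoptosis abundant in muscle, read 127.9 and 102.5 against 48.5 and 34.5 (1.19, adjusted p = 0.119), while its other probe set gave 0.33 (adjusted p = 0.714).

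On the lower side, GIGYF1, an adaptor that binds GRB10 and takes part in translational repression, was dim in callipyge lambs at 16.2 and 11.1. It read 51.8 and 63.1 in normal lambs (-1.31 ± 0.22, adjusted p = 0.0593). With 1 added to the signals in place of 16, GIGYF1 was called lower in limma, at -2.01 (adjusted p = 0.0475). COQ8A, needed for coenzyme Q synthesis, read 818.8 and 645.1 against 1357 and 1512 (-0.96, adjusted p = 0.119). TOB2, an antiproliferative protein that recruits deadenylases, read 513.6 and 525.8 against 842.6 and 1315 (-1.0, adjusted p = 0.226). Both normal lambs exceeded both callipyge lambs for each. The other TOB2 probe set gave -0.52 (adjusted p = 0.634). TCEA3, a transcription elongation factor, differed by -0.82, TTC14 by -1.30 and N4BP2L1 by -1.01, each with an adjusted p of 0.226. TTC14 had another probe set on the opposite side, at 0.25.

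ARHGEF2, a microtubule-bound activator of RhoA, differed by -0.88 (adjusted p = 0.258), and its other probe set by -0.17. The 3 remaining genes shared an adjusted p of 0.319: MAPK8IP3, a scaffold of JNK signalling and kinesin transport, at -0.95, ANGPT1, the ligand of the endothelial receptor TEK, at -1.0, and RAMP1, a subunit of the CGRP receptor, at -1.22. ANGPT1 was dim in all 4 lambs, at 23.7 and 10.5 in callipyge and 42.2 and 56.3 in normal lambs. RAMP1 was likewise dim, at 21.0 and 12.01 against 47.6 and 72.5, and its other probe set gave -0.37.

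**Figure D4:**
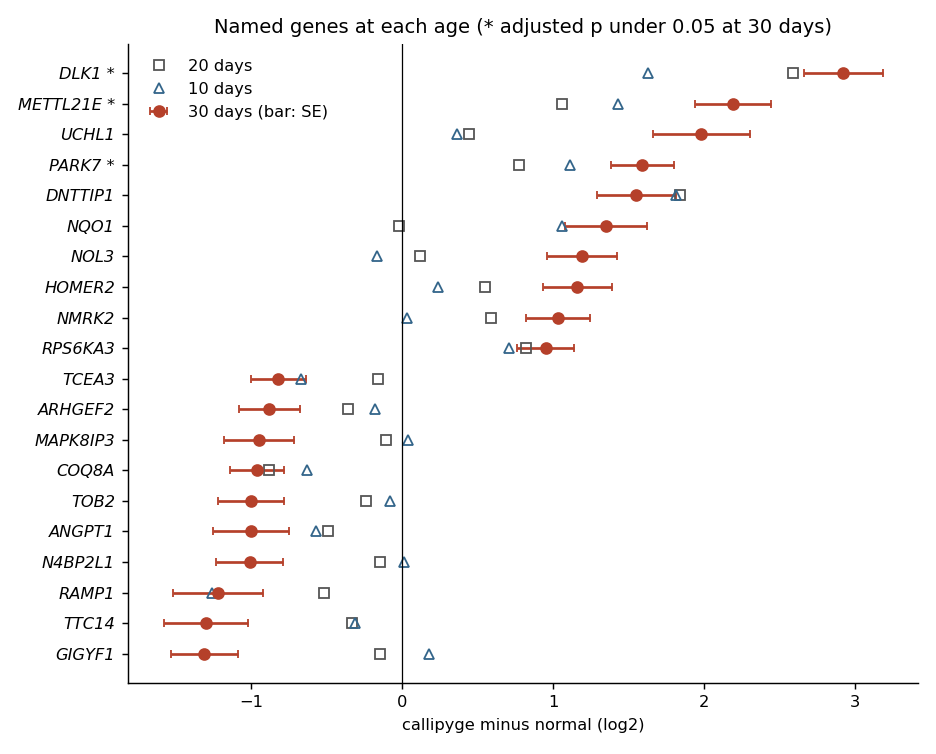
Genotype difference (x axis, log2, callipyge minus normal) of the 20 named genes at 30 days (red, with SE bars), 20 days (squares) and 10 days (triangles); METTL21E is shown by its first probe set and an asterisk marks an adjusted p under 0.05 at 30 days. DLK1, METTL21E, PARK7, DNTTIP1 and RPS6KA3 lie at 0.71 or more at all 3 ages, while UCHL1, NOL3 and NMRK2 lie between -0.17 and 0.36 at 10 days and at 1.03 or more at 30 days.

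A list of 12 genes that earlier callipyge studies named was also followed. It was drawn in part from such lambs and chosen with earlier results of these data known. The calls among its members, their directions and their median are therefore not independent evidence. Of its 8 measured members, 3 were called higher (DLK1, METTL21E and PARK7), against 0.05% of all probe sets, and 0 lower. The median difference was 1.57. PFKM, the muscle phosphofructokinase, read 4732 and 4592 in callipyge and 3762 and 3810 in normal lambs (0.30, adjusted p = 0.602). MYLK2, the kinase of the fast myosin regulatory light chain, read 247.2 and 315.7 against 146.7 and 229.4 (0.56, adjusted p = 0.768). IDH2, the mitochondrial NADP-dependent isocitrate dehydrogenase, read 1197 and 1617 against 2150 and 1986 (-0.57, adjusted p = 0.626). For these 3 the groups were apart, as they were for 33.5% of all probe sets, but the differences did not pass. For IDH2 the differences were larger at 10 days (-1.23) and 20 days (-0.99).

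Contractile genes differed little at 30 days. None of the measured members of the fast fibre, slow fibre, embryonic and neonatal, myogenic and sarcomere lists was called. The fast fibre list had 8 of 12 members above 0 and a median of 0.04, which became -0.06 without scaling of the arrays and 0.18 without both lambs numbered 2. The slow fibre list had 7 of 16 above 0 and a median of -0.08, which became 0.17 without both lambs numbered 2. Fast myosin heavy chain MYH1 read 8270 and 8103 in callipyge and 7198 and 8979 in normal lambs (0.03), and slow myosin heavy chain MYH7 differed by -0.15. In 4 of the 12 fast fibre genes the groups were apart, all higher, against 33.5% of all probe sets apart and 15.7% apart and higher. PGAM2, given below with glycolysis, had the smallest p of the fast list, at 0.33 (adjusted p = 0.542). The fast tropomyosin gene TPM1 had the lowest value of its list, at 434.7 and 193.9 against 628.5 and 420.8 (-0.79, adjusted p = 0.644), and the groups overlapped. In the slow list FABP3, a fatty acid carrier, differed by 0.61 (adjusted p = 0.714) and MYBPC1, slow myosin-binding protein C, by -0.32 (adjusted p = 0.675).

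Of 15 measured sarcomere genes 9 lay above 0, with a median of 0.06 that was -0.04 without scaling and 0.12 without both lambs numbered 2. CAPZB, which caps actin at the Z-disc, read 511.6 and 645.2 in callipyge and 384.1 and 326.5 in normal lambs (0.67, adjusted p = 0.388). PDLIM7, a Z-disc scaffold, differed by 0.36 (adjusted p = 0.604). Among 14 genes of myogenic regulation, with a median of -0.01 (-0.05 without both lambs numbered 2), MYF6 differed by 0.55 (adjusted p = 0.595) and MYOD1 by -0.55 (adjusted p = 0.634), both being transcription factors that drive muscle differentiation. MSTN, or myostatin, the secreted inhibitor of muscle growth, differed by 0.72, the highest value of that list. It was not called, and its unadjusted p in limma was not under 0.05 either. Of 11 embryonic and neonatal genes 6 lay above 0, with a median of 0.03 that was 0.39 without both lambs numbered 2, led by IGF2, a fetal growth factor and itself imprinted, which read 3236 and 2200 against 1235 and 1321 (1.05 ± 0.32, adjusted p = 0.451). MUSTN1, a nuclear protein of developing muscle, differed by -0.48 (adjusted p = 0.752).

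Glycolysis and glycogen genes mostly lay higher in callipyge lambs. Of 23 measured, 21 lay above 0 against 47.3% of all probe sets, the median was 0.24 against -0.02, and 0 were called. The groups were apart in 12 of them, 11 higher and 1 lower, against 15.7% of all probe sets higher and 17.8% lower. GPI, the isomerase that follows hexokinase, read 6603 and 5611 in callipyge and 5019 and 4507 in normal lambs (0.35, adjusted p = 0.542). TPI1, triosephosphate isomerase, read 7389 and 6702 against 5465 and 5261 (0.39, adjusted p = 0.565). PGAM2, the muscle phosphoglycerate mutase, read 7102 and 7186 against 5961 and 5378 (0.33, adjusted p = 0.542). All 3 enzymes were apart between the groups without passing. PFKL, the liver-type phosphofructokinase, was lower, at 98.9 and 86.7 against 172.6 and 135.9 (-0.64, adjusted p = 0.506). The list's median was 0.14 without scaling and 0.13 without normal lamb 1, and in the 4 pairings of a callipyge with a normal lamb it stayed above 0. It was 0.11 at 10 days and 0.20 at 20 days.

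Genes of the respiratory chain showed no common direction at 30 days: 36 of 75 lay above 0, the median was -0.01 (0.10 without both lambs numbered 2), and 0 were called. ATP5MF and ATP5PD, subunits of ATP synthase, differed by 0.47 and 0.37, NDUFB2 of complex I by 0.53 and UQCRH of complex III by -0.49, with adjusted p-values from 0.494 to 0.604. The list's median was -0.32 at 10 days and -0.18 at 20 days. Genes of the TCA cycle had 15 of 21 below 0 and a median of -0.10, which was 0.07 without both lambs numbered 2. SDHD, a membrane subunit of succinate dehydrogenase, differed by -0.21 (adjusted p = 0.818).

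Fatty acid genes had 16 of 25 below 0, a median of -0.09 (0 without both lambs numbered 2) and 0 calls. UCP3, a mitochondrial carrier of muscle, read 1306 and 1555 in callipyge and 766.9 and 777.3 in normal lambs (0.87 ± 0.24, adjusted p = 0.36). LPL, the lipase that frees fatty acids from lipoproteins, read 93.0 and 90.8 against 176.7 and 173 (-0.82, adjusted p = 0.604). CD36, a fatty acid transporter, read 650.4 and 975.4 against 1078 and 1821 (-0.80, adjusted p = 0.595). The groups were apart for all 3, which were taken for their small p, and none passed. In the whole list 4 members were apart and higher and 7 apart and lower, against 15.7% and 17.8% of all probe sets. ACADM, medium-chain acyl-CoA dehydrogenase, differed by -1.19, but normal lamb 1 at 419.6 was near the callipyge lambs at 390.9 and 333.6, and only normal lamb 2, at 1696, stood high.

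Proteasome subunits lay higher in 27 of 32 measured genes, against 47.3% of all probe sets, with a median of 0.16 and 0 calls. The groups were apart in 11, all higher, while among all probe sets 33.5% were apart and 15.7% were apart and higher. PSMB7 read 1653 and 1642 in callipyge and 1053 and 1106 in normal lambs (0.60 ± 0.15, adjusted p = 0.329), and PSMB6 read 1157 and 1323 against 691.6 and 889.7 (0.65 ± 0.18, adjusted p = 0.399). Both are beta subunits of the catalytic core. PSMC3, an ATPase of the regulatory particle, differed by 0.43 and PSMA1, an alpha subunit, by 0.57. The list's median was 0.06 without normal lamb 1 and 0.32 without normal lamb 2. Ubiquitin ligases and autophagy genes had 15 of 25 above 0 and a median of 0.16, which was -0.07 without normal lamb 1 and 0.07 without both lambs numbered 2. In that list GABARAPL1, an autophagosome protein, differed by -0.41 (adjusted p = 0.651) and CAST, the calpain inhibitor calpastatin, by 0.56 (adjusted p = 0.675).

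In protein synthesis, 22 of 34 translation factors lay above 0 with a median of 0.06, which was -0.03 without scaling, and 0 were called. EIF3I, a subunit of the initiation factor eIF3, read 886.8 and 1038 in callipyge and 535.3 and 638.2 in normal lambs (0.70, adjusted p = 0.36). EIF4E, the cap-binding protein, differed by 0.57 (adjusted p = 0.626), EIF2B2 by 0.54 (0.571) and the elongation factor EEF1G by 0.33 (0.533). Ribosomal protein genes had 25 of 61 above 0 and a median of -0.03, which was 0.07 without both lambs numbered 2. Of these RPS14 differed by -0.36 (adjusted p = 0.571) and FAU by 0.37 (adjusted p = 0.657).

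Growth signalling had 15 of 25 members above 0 and a median of 0.12, with DLK1 the single member called. Calcium handling had 10 of 15 below 0 and a median of -0.05, which was 0.05 without both lambs numbered 2. RCAN1, an inhibitor and target of calcineurin, read 366.9 and 308.9 in callipyge and 589.5 and 571.7 in normal lambs (-0.76 ± 0.19, adjusted p = 0.326). The groups were apart for RCAN1, which was taken for its small p. In the whole list 1 member was apart and higher and 4 apart and lower, against 15.7% and 17.8% of all probe sets. CAMK2D, a calcium-dependent kinase, differed by 0.34 (adjusted p = 0.754). Of 14 genes of cyclic AMP signalling 8 lay below 0 (median -0.13, and -0.03 without both lambs numbered 2), among them the adenylyl cyclase ADCY6 at -0.37 and the phosphatase inhibitor PPP1R1A at -0.30.

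Redox defence had 17 of 25 members above 0, a median of 0.15 (0.07 without both lambs numbered 2) and PARK7 as its single call. SELENOP, which carries selenium in plasma, read 147.1 and 128.7 in callipyge and 277.8 and 209.2 in normal lambs (-0.74, adjusted p = 0.408), and GPX3, the extracellular glutathione peroxidase, read 231.1 and 325.3 against 384 and 578.2 (-0.75, adjusted p = 0.533). Thus members with the smallest p lay on both sides. Heat shock and endoplasmic reticulum genes had 20 of 29 above 0 and a median of 0.16, which was -0.07 without both lambs numbered 2. The chaperones HSPA8 and HSPB6 differed by 0.45 (adjusted p = 0.594) and 0.54 (adjusted p = 0.651).

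Chromatin regulators had 14 of 25 members below 0 and a median of -0.12, which was 0.11 without both lambs numbered 2. NCOR1, a corepressor that recruits histone deacetylases, read 105.1 and 91.5 in callipyge and 165.4 and 200.3 in normal lambs (-0.80 ± 0.21, adjusted p = 0.36). DNMT3A, a de novo DNA methyltransferase, read 247.4 and 172.8 against 329.5 and 393.2 (-0.75 ± 0.21, adjusted p = 0.406). The acetyltransferase CREBBP differed by -0.50 (adjusted p = 0.626). All 3 were taken for their small p, were lower in both callipyge lambs, did not pass, and differed by no more than 0.07 in size at 10 and 20 days. The difference between ages passed for none of them (limma, adjusted p of 0.927 to 0.941 against 10 days and 0.99 against 20 days). DNTTIP1, given above, had the smallest p of this list and lay on the higher side, at 1.55 (adjusted p = 0.0593). Other imprinted genes had 11 of 19 below 0 and a median of -0.10, which was 0.07 without both lambs numbered 2. After IGF2 the smallest p was that of NNAT, or neuronatin, a small endoplasmic reticulum protein, at 0.69 (adjusted p = 0.534). Cell cycle genes had 11 of 20 below 0 and a median of -0.02 (-0.04 without both lambs numbered 2), with CCND3 at -0.51 (adjusted p = 0.639) and BUB3 at -0.31 (adjusted p = 0.828).

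Immediate early genes, which respond within minutes to stimulation, lay on both sides. FOS, an immediate early transcription factor, read 1253 and 1832 in callipyge and 178.7 and 181.8 in normal lambs, a difference of 2.96 ± 0.86 that did not pass (adjusted p = 0.408). It was 2.39 at 10 days and -2.03 at 20 days. FOS did pass without callipyge 20 day lamb 1 (adjusted p = 0.0223), without callipyge 20 day lamb 2 (0.022) and in the 4 arrays at 30 days alone (0.0065). EGR1, of the same class, read 461.4 and 153.3 against 117 and 95.6 (1.22, adjusted p = 0.542). KLF10 differed by -0.76 (adjusted p = 0.525) and JUND by -0.51 (adjusted p = 0.594). Of 17 immediate early genes 9 lay above 0, with a median of 0.15. Circadian and glucocorticoid genes had 11 of 14 below 0 and a median of -0.29 (-0.18 without both lambs numbered 2). The groups were apart in 5, all lower, while among all probe sets 33.5% were apart and 17.8% were apart and lower. FKBP5, a glucocorticoid-induced chaperone, read 19.1 and 24.1 against 57.0 and 57.7 (-0.97, adjusted p = 0.36), and ZBTB16, induced by the same receptor, read 69.4 and 70.8 against 100.5 and 164.6 (-0.75, adjusted p = 0.525). The time of day of sampling is not in the labels.

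Markers of vessels lay lower in callipyge lambs at 30 days. Of 19 endothelial and smooth muscle markers measured, 16 lay below 0, where 47.3% of all probe sets lay above it, and the median was -0.35 with 0 calls. The groups were apart in 9, all lower, while among all probe sets 33.5% were apart and 17.8% were apart and lower. The summed signal was 8370 to 10507 in callipyge and 11490 to 11982 in normal lambs. In bulk tissue, fewer cells of a type and less RNA per cell cannot be told apart. MYH11, the smooth muscle myosin, read 176.7 and 115.3 against 381.9 and 229.4 (-0.97 ± 0.32, adjusted p = 0.506). TEK, the endothelial angiopoietin receptor, read 272.2 and 209.6 against 424.2 and 409.7 (-0.76, adjusted p = 0.542). Both had groups apart without passing. ACTA2 and TAGLN, of the smooth muscle cytoskeleton, differed by -0.49 and -0.53 (adjusted p = 0.542 and 0.611). The list's median was -0.10 without callipyge lamb 2, -0.04 at 10 days and -0.02 at 20 days.

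The lists of the other cell types also had 0 calls. Matrix and fibroblast markers had 19 of 24 below 0 and a median of -0.20, but it was 0.15 without callipyge lamb 2, and their summed signal overlapped, at 14705 to 21763 in callipyge and 16537 to 24135 in normal lambs. MFAP4, a microfibril protein, differed by -0.57 and SPARC by -0.58 (adjusted p = 0.644 and 0.752). The 3 erythroid markers measured were all below 0, with a median of -0.64 (-0.36 without callipyge lamb 2 and -0.39 without normal lamb 1). They summed to 131 to 167 against 237 to 306, with HBB, the beta-globin gene, at 39.5 and 47.2 against 112.6 and 106.2 (-1.08, adjusted p = 0.571) and HBA at -0.64. Adipocyte markers had 8 of 13 below 0 (median -0.13, and -0.46 without both lambs numbered 2), and summed to 1366 to 1958 in callipyge and 1961 to 2756 in normal lambs. CD36 and LPL, given above, belong to that list too, and PLIN2, of lipid droplets, differed by 0.62. CD36 alone read 650.4 and 975.4 in callipyge and 1078 and 1821 in normal lambs, a large part of each sum. The sums of the other members overlapped between the groups.

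Of 29 immune markers 15 were too dim and 11 were measured, with a median of 0 and sums of 539 to 614 against 540 to 551, C1QA at 0.49 and CD3E at 0.48 having the smallest p. Antigen and interferon genes split evenly, 9 above and 9 below 0 (median -0.02, and -0.16 without both lambs numbered 2), with IFI6 at -1.01 (adjusted p = 0.634), SHFL at -0.84 (0.634) and IFIT2 at 0.90 (0.638). Of the 5 nerve and Schwann markers measured, UCHL1 had the largest difference and MBP, a myelin protein, differed by 0.20. That list summed to 280 to 298 in callipyge and 201 to 240 in normal lambs. The gap rests on UCHL1, at 76.6 and 106.6 against 8.30 and 14.0, as the sums of the other members overlapped. The median of the list was 0.05, which was -0.03 without scaling or without both lambs numbered 2. The part of these cell types in the differences of single genes was not tested.

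**Figure D5:**
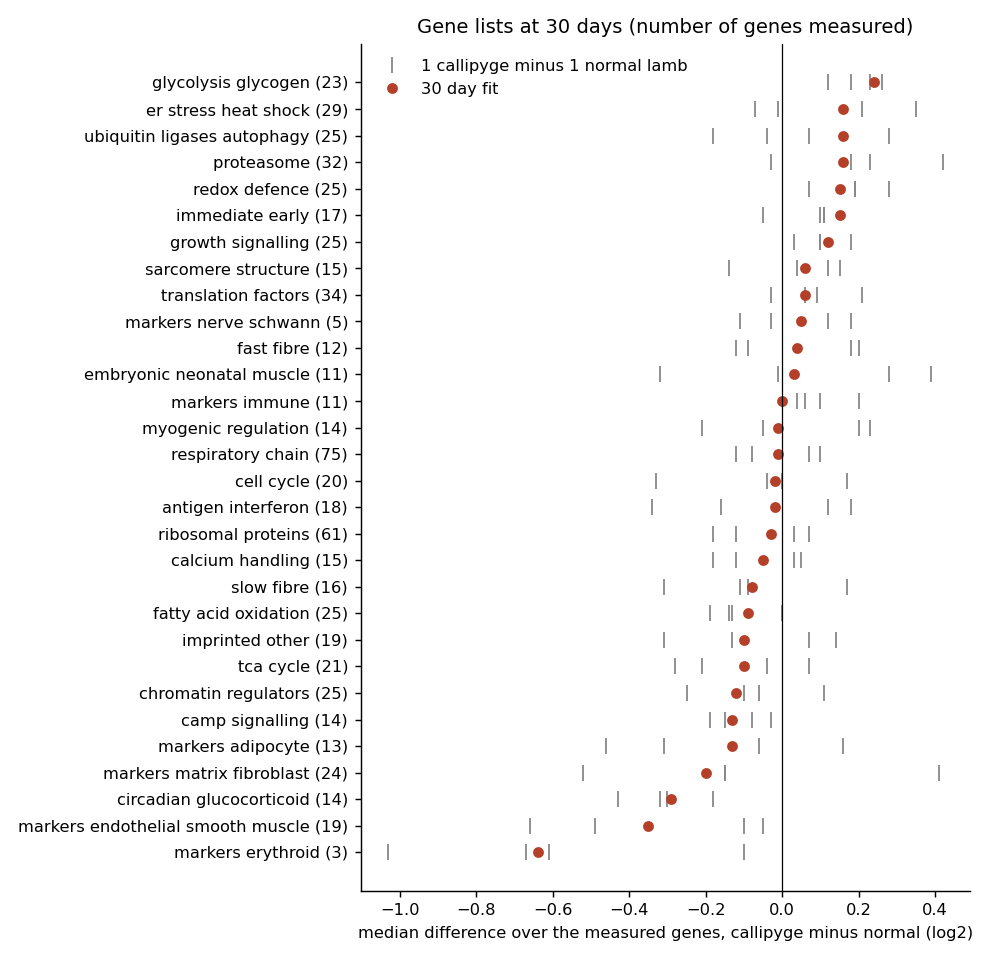
Median genotype difference at 30 days (x axis, log2) over the measured genes of 30 lists (y axis, number of genes in parentheses; the locus and published callipyge lists, at 0.70 and 1.57, are not drawn); red points are from the fit and grey ticks are the medians for each of the 4 pairings of 1 callipyge with 1 normal lamb. Of the lists drawn, glycolysis lies highest at 0.24 with all its ticks above 0, the erythroid (-0.64) and endothelial and smooth muscle (-0.35) lists lie lowest with all ticks below 0, and most other lists have ticks on both sides.

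The 30 day differences were then set beside those at 10 and 20 days, which come from other lambs. At 10 days 8 probe sets passed (0.0666%) and at 20 days 4 (0.0333%). Those with an unadjusted p under 0.05 numbered 1061 (8.84%) and 739 (6.15%), and those that differed by at least 2-fold 142 (1.18%) and 105 (0.874%). Of the 6 called at 30 days, 2 (33.3%) were called at 10 days, where they were 25% of the calls, and 2 (33.3%) at 20 days, where they were 50%. These were DLK1 and the first unnamed probe set on both occasions. METTL21E and PARK7 were called at 30 days only, but the difference between ages did not pass for either. Of the 918 probe sets with an unadjusted p under 0.05 at 30 days, 67.1% had the same sign at 10 days and 65.5% at 20 days, against 56% and 54.9% of all tested probe sets, and 444 kept the sign at both ages.

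DLK1 signals in callipyge lambs were 1383 and 1397 at 10 days, 1964 and 2284 at 20 days, and in normal lambs 512.3 and 376.4, then 340 and 335.5. The difference was thus 1.63 at 10 days and 2.59 at 20 days, and the 30 day difference exceeded that at 10 days by 1.30 (unadjusted p = 0.00336, adjusted p = 0.742). At 10 days XIST was low in both callipyge lambs and in normal lamb 1, and DLK1 in that normal lamb, at 512.3, was below both callipyge lambs. This is a single normal lamb, and the part of the XIST level in the DLK1 difference was not tested at 10 days. METTL21E differences in the first probe set were 1.43 and 1.06 at 10 and 20 days and in the other 1.5 and 1.16. PARK7 differences were 1.11 and 0.77, from signals of 4250 and 4417 against 2097 and 1917 at 10 days and 3597 and 3170 against 2090 and 1860 at 20 days. In all of these every callipyge lamb lay above every normal lamb of its age.

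Some genes called at a younger age had smaller differences at 30 days. SLC16A3, the lactate exporter MCT4 of glycolytic muscle, was 1.45 at 10 days and 0.56 at 30 days (adjusted p = 0.542). UQCRQ, a subunit of complex III, was -1.96 and -0.23, and TTYH1, a chloride channel family member, -2.13 and -0.07.

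No difference between ages passed. For 30 against 10 days the smallest adjusted p was 0.599, and 614 probe sets (5.11%) had an unadjusted p under 0.05. For 30 against 20 days the values were 0.99 and 561 (4.67%). The smallest unadjusted p-values for 30 against 10 days were those of TTYH1, at 2.06, and MEF2C, at 1.36 (adjusted p = 0.599 in limma for each). MEF2C is a muscle transcription factor whose difference was 0.34 at 30 and -1.02 at 10 days. MEF2C read 1146 and 1307 in callipyge and 941 and 987.2 in normal lambs at 30 days. The 30 day differences of UCHL1 and NOL3 exceeded those at 10 days by 1.62 and 1.37, with adjusted p-values of 0.742 and 0.599.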

How the data were processed

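Total RNA of 12 longissimus dorsi samples was measured on Affymetrix bovine arrays, 1 per lamb. The deposited intensities, on a linear scale, were made by the authors with MAS5 in GCOS, per the submitters' processing notes, and no version or scaling target is given in the sources used here. Replicates are labelled biological. Each array was scaled to a common trimmed mean (2% left out at each end) and log2(signal + 16) taken. Of 24128 probe sets, 112 controls and then those with a mean below the median (5.25) were left out, leaving 12008, of which 7928 had 1 symbol, 52 several and 4028 none. limma 3.58.1 in R 4.3.3 fitted 6 group means with a variance trend, 6 residual and 6.93 prior degrees of freedom, with Benjamini-Hochberg adjustment at 0.05. The model was tested on simulated data. Figures used matplotlib 3.10.9 in python 3.11.15.

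The number of arrays limits the precision. Sheep RNA may bind bovine probes unevenly, so tests compare signals between lambs, not between genes. Samples were grouped by their labels. The lambs compared, the 32 gene lists and the tests were chosen with earlier results of these data known. Named were the locus genes, passing genes (up to 15 a direction, filled to 10 by smallest p where under 5 passed, by the probe set with the smallest p), the published genes, up to 4 genes of smallest p per list (by the brightest probe set), and up to 3 per age difference and direction. The text gives list members at an unadjusted p under 0.05 and otherwise the first 2. MYH7, MSTN, CINP and DYNC1H1 were added after their values were seen. Same-numbered lambs did not deviate together at 10 days (r = 0.02) or 20 days (r = 0.026), and at 30 days r was 0.112, so the numbers were not taken as pairs. Alternatives changed the threshold, pseudocount (1, 64), filter, scaling, variance model, array weights, replicate block and arrays. The XIST covariate was added after the data were seen.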

Additional observations from a re-analysis of the deposited data

Results flagged for a closer look

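Only 30 probe sets of named genes, called or of small p at 30 days or between ages, were examined here. For 10 of their genes both callipyge lambs lay on one side of both normal lambs at 30 days and on the opposite side at a younger age. All 10 were among the genes taken for the smallest p between ages, so such a switch largely follows from how they were chosen. Their number is therefore not to be set against the shares of all probe sets that follow. Among all 12008 tested, 526 probe sets (4.38%) switched sides in this way between 10 and 30 days and 584 (4.86%) between 20 and 30 days. The difference between ages passed in limma for none of them. Values are the 30 day genotype difference minus that at the other age, on the log2 scale. Against 10 days, GIGYF1 was -1.49, ZBTB16 -1.68 and HMOX2, a constitutive heme oxygenase, -1.79, while MEF2C was 1.36 and MVK, mevalonate kinase, 2.30, each with an adjusted p of 0.599. Against 20 days, MVK was 1.51, OLFM1 2.55, the immediate early gene EGR1 2.96 and NIPSNAP1 1.83, while the mitochondrial serine carrier SFXN1 was -1.15 and the co-chaperone DNAJB12 -1.26, each with an adjusted p of 0.99. MVK at 30 days read 18.2 and 52.9 in callipyge and 17.4 and 15.8 in normal lambs, so its groups there were barely apart. The same held for GIGYF1 at 10 days, which read 35.71 and 31.33 in callipyge and 25.15 and 30.57 in normal lambs. OLFM1 and NIPSNAP1 were dim, with signals of at most 29.3 and 39.3 at 30 days. Other probe sets of some of these genes gave other values. Against 20 days, the others of DNAJB12 gave -0.14 and 0.47, and those of SFXN1 -0.04 and -0.85, while those of OLFM1 gave 1.37 and 1.94.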

How the results depend on the processing

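DLK1 was called at 30 days under every alternative run except ordinary least squares without shared variance, which called 0 (adjusted p = 0.272 for DLK1; 854 at an unadjusted p under 0.05). Against 6 probe sets in limma at 30 days, 10 were called at a threshold of 0.10, 1 without both lambs numbered 2, 1 with the XIST covariate, and 1 to 13 when 1 array was left out (1 without callipyge lamb 2, 13 without callipyge lamb 1). The 4 arrays at 30 days alone gave 5 calls (DLK1, METTL21E in 2 probe sets, FOS and XIST), and the arrays without scaling 4 (DLK1, METTL21E in 2 probe sets and UCHL1). With a pseudocount of 1 all 6 were still called, and GIGYF1 (lower) and UCHL1 (higher) were among the further calls. With the replicate block 9 were called at 30 days, 10 at 10 days, 5 at 20 days and 0 for either difference between ages. Without scaling, 5 were called at 10 days (0 higher, 5 lower, against 5 higher and 3 lower) and 9 at 20 days (2 higher, 7 lower, against 4 higher), and 3 for 30 against 20 days; the cause was not tested. For 30 against 10 days 1 passed without both 30 day lambs numbered 2, and for 30 against 20 days 0 to 2 when 1 array was left out, with 2 without callipyge 20 day lamb 2. These differences changed sign: without both lambs numbered 2, a WARS1 probe set -0.05, a YY1 probe set 0.19, BUB3 0.02, DYNC1H1 0.19 and UQCRQ 0.30; without scaling, YY1 -0.02 in 2 probe sets and WARS1 -0.07; with the XIST covariate, YY1 -0.11, BUB3 0.01 and, as the covariate is its own level, XIST -0.03. When 1 array was left out a MEG3 probe set ranged from -0.95 to 0.17, WARS1 from -0.21 to 0.71 and -0.35 to 0.37, YY1 from -0.30 to 0.45, -0.18 to 0.28 and -0.27 to 0.14, SPARC from -1.32 to 0.16, DYNC1H1 from -0.62 to 0.02 and UQCRQ from -0.59 to 0.14. Dim probe sets, with signals near the added 16, have the least certain folds.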
